A study of Homo sapiens with 6 samples.

Results

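The transcripts of the 10 human Frizzled receptors, FZD1 to FZD10, were followed in aggregates of NCRM-1, a human induced pluripotent stem cell line made from cord blood cells. The rows were found by the Ensembl identifiers that GENCODE 44 gives for these symbols, which selected 10 of the 19977 genes counted. All 10 were present, 9 passed the filter on low counts, and FZD10 did not. RNA was sequenced from 3 libraries grown for 4 days in E8 with 10 mg/ml polyethylene glycol (PEG) and 0.1 µg/ml heparin sodium salt (HS), and from 3 libraries grown for 4 days in E8 alone (E8 control). All 6 came from wild-type cells that had been kept on vitronectin, dissociated with TrypLE and seeded as single cells into vertical wheel bioreactors, and 50% of the medium was replaced on day 2. The comparison asked how the medium chosen for aggregate stability, growth and pluripotency differed from E8 in its transcripts. Libraries were grouped by the treatment field of their labels, although the protocol text of all 6 libraries describes PEG and heparin. Total counts were 26991279 to 36185138 per library, with TMM factors of 0.994 to 1.0056. The labels describe a single control bioreactor and a single treated one. The effect of the medium and that of the vessel therefore cannot be told apart, and the p-values measure the spread between samples that may share a vessel.

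Frizzled proteins are membrane-spanning receptors with an extracellular cysteine-rich domain that binds the lipid of a Wnt ligand. With the co-receptors LRP5 and LRP6 they recruit Dishevelled and stabilise beta-catenin, and without them they act in planar cell polarity and calcium signalling. Wnt signals are known to direct pluripotent cells toward primitive streak and mesoderm, and their inhibition is known to favour anterior neural fate. By protein sequence the family is commonly divided into FZD1, FZD2 and FZD7, into FZD5 and FZD8, into FZD3 and FZD6, and into FZD4, FZD9 and FZD10.

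In the genome (GRCh38), FZD1 was located at chr7:91264433-91271326 (plus strand), FZD2 at chr17:44557484-44561262 (plus strand), FZD5 at chr2:207762598-207769906 (minus strand), FZD7 at chr2:202033855-202038441 (plus strand) and FZD8 at chr10:35638247-35642296 (minus strand). FZD4 was located at chr11:86945679-86955395 (minus strand), FZD9 at chr7:73433778-73436120 (plus strand) and FZD10 at chr12:130162459-130165740 (plus strand). The canonical transcripts of FZD1, FZD2, FZD7, FZD8, FZD9 and FZD10 each consist of 1 exon, and those of FZD4 and FZD5 of 2.

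Some coding sequences of the family share long exact stretches, and 1 stretch from each of the subfamilies that differed most is shown because reads inside it could come from either gene. FZD3 and FZD6 were not compared for such stretches. Among the other receptors, the longest was shared by FZD1 (chr7:91266062-91266142, plus strand) and FZD2 (chr17:44558645-44558725, plus strand). It spans 81 bases, printed 5′ to 3′ from GENCODE 44 with no capitals. The stretch shared by FZD5 (chr2:207768392-207768442, minus strand) and FZD8 (chr10:35641076-35641126, minus strand) spans 51 bases.
FZD1 and FZD2: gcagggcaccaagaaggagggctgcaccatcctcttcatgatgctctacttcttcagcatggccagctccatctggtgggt
FZD5 and FZD8: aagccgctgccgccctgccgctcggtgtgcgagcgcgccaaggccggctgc
Of the 31-base words in the transcripts of a receptor, 7.23% occurred in transcripts of another gene for FZD2, 2.59% for FZD7, 2.06% for FZD8, 1.57% for FZD1 and 1.18% for FZD5. It was 0% for FZD6, which was also called lower. Among the receptors not called, the share was 2.85% for FZD3, 2.37% for FZD4 and 0.476% for FZD9. For FZD10, which was not tested, it was 0.308%. How reads inside shared sequence were counted is not given in the sources used here.

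The RefSeq promoter table (GRCh38.p14) held 5 of the 10 receptors, namely FZD1, FZD4, FZD5, FZD8 and FZD9. The 250 bases before the start of FZD5 (chr2:207769907-207770156, minus strand) and of FZD8 (chr10:35642297-35642546, minus strand) are shown because these transcripts differed most between the media, and those of FZD4 (chr11:86955396-86955645, minus strand) because its transcripts did not pass the test. They are printed 5′ to 3′ on the gene's strand, and capitals mark ATTGG, the reverse complement of the CCAAT box.
FZD5: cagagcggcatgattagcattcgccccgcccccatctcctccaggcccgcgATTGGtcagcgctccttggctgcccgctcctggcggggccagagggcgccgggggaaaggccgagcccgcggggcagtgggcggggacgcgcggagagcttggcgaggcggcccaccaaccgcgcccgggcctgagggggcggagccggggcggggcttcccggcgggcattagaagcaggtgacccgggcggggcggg
FZD8: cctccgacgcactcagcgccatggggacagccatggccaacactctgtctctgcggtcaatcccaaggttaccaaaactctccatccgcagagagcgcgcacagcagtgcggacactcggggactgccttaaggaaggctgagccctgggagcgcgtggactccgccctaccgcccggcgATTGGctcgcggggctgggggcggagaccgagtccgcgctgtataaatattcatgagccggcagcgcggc
FZD4: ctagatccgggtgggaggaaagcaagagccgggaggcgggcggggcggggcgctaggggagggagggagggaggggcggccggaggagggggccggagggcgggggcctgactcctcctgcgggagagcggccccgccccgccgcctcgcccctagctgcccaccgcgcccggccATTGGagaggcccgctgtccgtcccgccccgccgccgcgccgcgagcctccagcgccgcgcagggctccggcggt
A CCAAT box (CCAAT, either strand) was found 199 bases before the start of FZD5, 70 before FZD8, 75 before FZD4 and 91 before FZD1, and not in the window of FZD9. Over all 35116 RefSeq promoters, 32.0% held this motif in the same window. The letters CTTTGA, a core of TCF/LEF sites, and TAATCC, bound by OTX factors, were in none of the 5 windows on either strand, and 11.2% and 5.62% of all promoters held them. The SP/KLF letters GGGCGG were found on either strand 6 times for FZD5, 3 times for FZD8, 6 times for FZD4, 2 times for FZD9 and 1 time for FZD1, and 42.6% of all promoters held them. The windows were rich in G and C, with 76.8% for FZD5, 65.2% for FZD8 and 80.8% for FZD4 against a median of 58% over all promoters. The CCAAT box was thus in the 3 windows held of receptors called lower, FZD1, FZD5 and FZD8. It was in 1 of the 2 windows of receptors not called, FZD4 and not FZD9, while the SP/KLF letters were in all 5. For FZD2, FZD6 and FZD7, also called lower, no window was held.

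In PEG and HS, 6 of the 9 Frizzled transcripts tested were lower than in E8 control (edgeR quasi-likelihood test, Benjamini-Hochberg adjusted p under 0.05 over all genes) and none was higher. FZD8, FZD5 and FZD2 differed most, followed by FZD1, FZD7 and FZD6. FZD3, FZD4 and FZD9 were not called. The paper already reports FZD5 and a gene written as FRZ8, read here as FZD8, as down-regulated in these data. The calls of FZD5 and FZD8 are therefore not independent results. Over all 16505 genes tested, 13.1% were called lower and 12.2% were called higher. Measured as CPM, the reads of a gene scaled to a common library size, the same 6 receptors showed no overlap between libraries of the 2 media, all lower in PEG and HS, where 19.8% of all genes tested were lower without overlap. The median log2 fold change was -0.39 over the 9 receptors and 0.0031 over all genes tested. In bulk RNA, fewer cells of a type that expresses a receptor and less RNA per cell cannot be told apart.

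**Figure D1:**
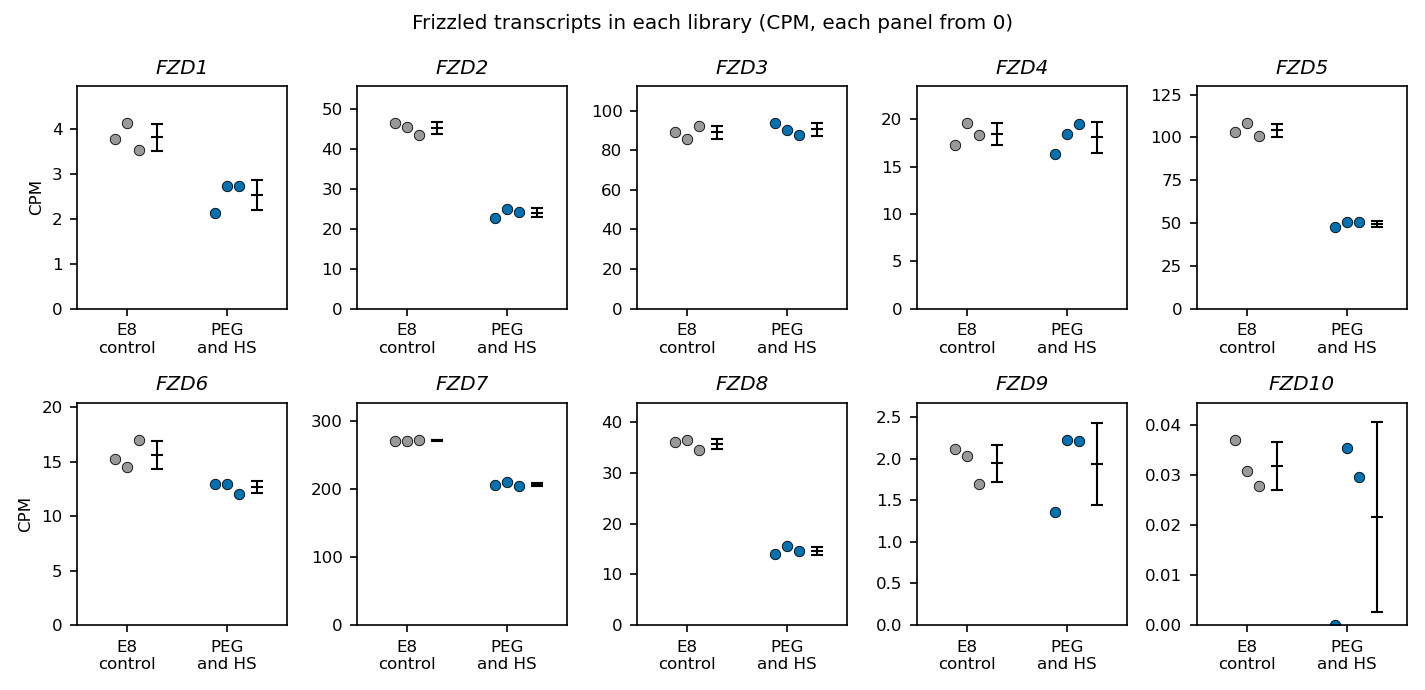
CPM (y axis, from 0 in each panel) of each Frizzled transcript in the 3 E8 control libraries (grey) and the 3 PEG and HS libraries (blue), with the mean and SD beside the points. The media did not overlap for FZD1, FZD2, FZD5, FZD6, FZD7 and FZD8, and they overlapped for FZD3, FZD4, FZD9 and FZD10.

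FZD5 and FZD8 form a subfamily of closely related receptors that are known from early neural and eye development. FZD8 was measured at 13.9, 15.5 and 14.5 CPM in PEG and HS replicates 1, 2 and 3, and at 36.0, 36.5 and 34.5 CPM in E8 control. These values rest on 438 to 492 reads per library in PEG and HS and on 971 to 1244 in E8 control. Every PEG and HS library lay below every E8 control library. FZD8 was 2.44-fold lower, with a log2 fold change of -1.29 (SE 0.054, 95% interval -1.40 to -1.17, edgeR adjusted p = 1.21e-10).

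FZD5 was measured at 47.4, 50.3 and 50.8 CPM in the PEG and HS libraries and at 103.3, 108.3 and 101.0 CPM in E8 control, again without overlap. The difference was 2.11-fold, with a log2 fold change of -1.08 (SE 0.038, 95% interval -1.16 to -0.99, edgeR adjusted p = 1.83e-11). FZD5 and FZD8 were the 2 receptors called with a fold above 2 (1.78% of all genes were called lower by over 2-fold), although the interval of FZD5 reached below 2-fold.

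FZD1, FZD2 and FZD7 form the subfamily most often tied to beta-catenin signalling, and FZD7 is the receptor known for its high level in human pluripotent cells. FZD2 was measured at 22.8, 25.0 and 24.2 CPM in the PEG and HS libraries and at 46.5, 45.6 and 43.5 CPM in E8 control. It was 1.88-fold lower in PEG and HS, with a log2 fold change of -0.91 (SE 0.048, 95% interval -1.02 to -0.81, edgeR adjusted p = 1.64e-09). All 3 PEG and HS libraries lay below all 3 E8 control libraries.

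FZD7 was measured at 206.1, 209.5 and 204.6 CPM in the PEG and HS libraries and at 270.2, 270.6 and 272.4 CPM in E8 control. The libraries of a medium differed by few CPM beside the gap between the media, with 206.7 ± 2.51 CPM (SD, n = 3) against 271.0 ± 1.16 CPM (SD, n = 3). The log2 fold change was -0.39 (SE 0.026, 95% interval -0.45 to -0.34, edgeR adjusted p = 1.89e-08), a 1.31-fold lower level. FZD7 thus differed by a smaller factor than FZD5, FZD8 and FZD2, and their intervals did not overlap that of FZD7.

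FZD1 was counted by 72 to 92 reads per library in PEG and HS and by 102 to 134 reads in E8 control. It was measured at 2.14, 2.72 and 2.72 CPM in the PEG and HS libraries and at 3.78, 4.12 and 3.52 CPM in E8 control, without overlap. Its log2 fold change of -0.59 had a wide interval of -0.90 to -0.29 (SE 0.142, edgeR adjusted p = 0.00605), as its few reads allow.

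FZD3 and FZD6 are the receptors best known for planar cell polarity, in axon tracts and in hair follicle orientation. They lie on the plus strand at chr8:28494205-28574267 for FZD3, with 8 exons in the canonical transcript, and at chr8:103298433-103332866 for FZD6, with 7 exons. FZD6 was measured at 13.0, 13.0 and 12.1 CPM in the PEG and HS libraries and at 15.2, 14.5 and 17.02 CPM in E8 control. It was 1.24-fold lower in PEG and HS, with a log2 fold change of -0.31 (SE 0.071, 95% interval -0.46 to -0.15, edgeR adjusted p = 0.00503), and the libraries did not overlap.

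FZD3 was measured at 93.6, 90.2 and 87.4 CPM in the PEG and HS libraries and at 89.0, 85.7 and 92.2 CPM in E8 control, so the media overlapped. Its log2 fold change was 0.02 (SE 0.037, 95% interval -0.06 to 0.10, edgeR adjusted p = 0.704). The log2 fold changes of FZD8, FZD5, FZD2, FZD1, FZD7 and FZD6 lay outside this interval.

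FZD4, a receptor for norrin and Wnt ligands known from retinal vessels, was measured at 16.3, 18.4 and 19.6 CPM in the PEG and HS libraries and at 17.3, 19.6 and 18.3 CPM in E8 control. The media overlapped, with a log2 fold change of -0.03 (SE 0.071, 95% interval -0.18 to 0.12, edgeR adjusted p = 0.818). FZD4 lies antisense to part of PRSS23, a protease gene that was lower in PEG and HS at 10.8 ± 0.673 CPM against 15.6 ± 1.62 CPM (SD, n = 3, log2 fold change -0.53, edgeR adjusted p = 0.000157). The libraries were stranded, but the strand setting of the counting is not given in the sources used here, so reads of both genes cannot be told apart with certainty where they overlap.

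FZD9 was measured at 1.36, 2.23 and 2.22 CPM in the PEG and HS libraries and at 2.11, 2.03 and 1.69 CPM in E8 control, on 46 to 75 reads per library. Its log2 fold change of -0.01 had the widest interval of the 9 receptors, -0.45 to 0.44 (SE 0.209, edgeR adjusted p = 0.993), so a difference within these bounds was not detectable at this depth. FZD10 had 0, 1 and 1 reads in PEG and HS and 1, 1 and 1 reads in E8 control. Both media were below the 3 counts used as a floor, which correspond to at most 0.106 CPM in the PEG and HS libraries and 0.111 CPM in E8 control, and no fold was computed.

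**Figure D2:**
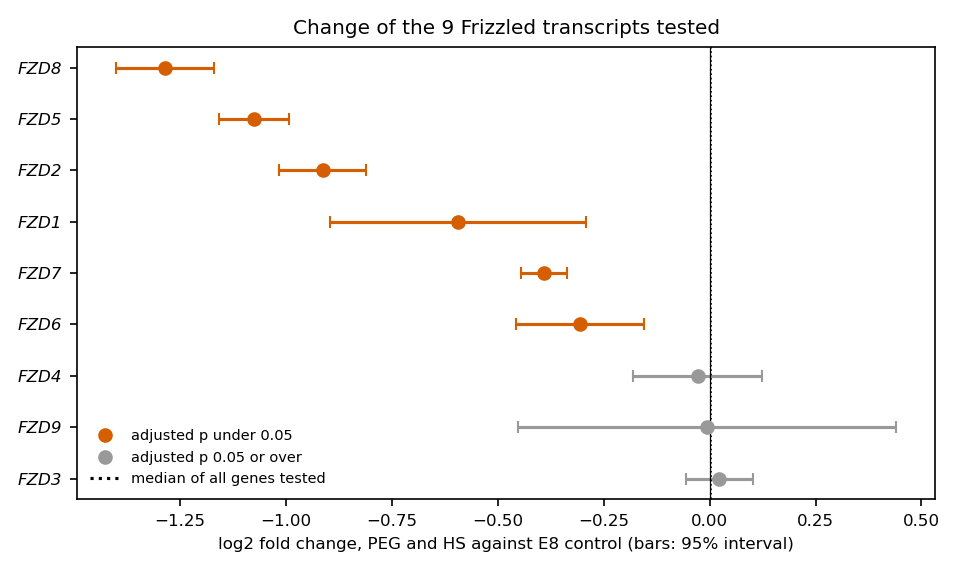
Log2 fold change of PEG and HS against E8 control (x axis) for the 9 receptors tested, with 95% intervals from the edgeR fit; orange marks an adjusted p under 0.05 and grey the others. The intervals of FZD8, FZD5, FZD2, FZD1, FZD7 and FZD6 lie below 0, and those of FZD4, FZD9 and FZD3 include 0.

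Against a null hypothesis of a 1.5-fold change in place of no change (edgeR glmTreat), 3 receptors were called lower, namely FZD2, FZD5 and FZD8. Of all genes tested, 1.42% were called lower by this test. The calls of FZD1, FZD6 and FZD7 therefore hold against no change but not against 1.5-fold.

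**Figure D3:**
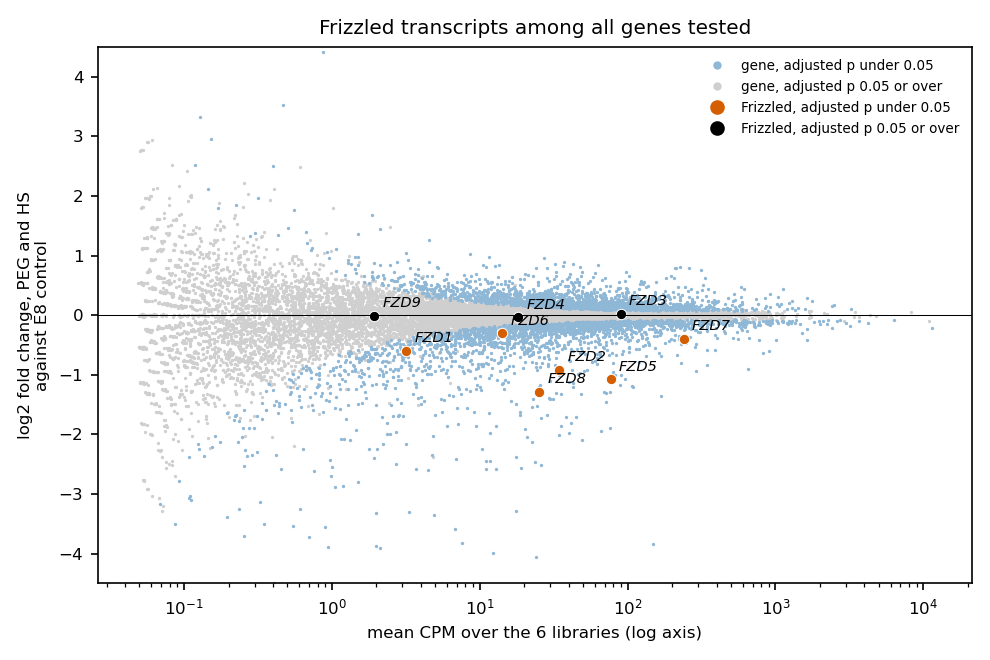
Log2 fold change of PEG and HS against E8 control (y axis) by mean CPM over the 6 libraries (x axis, log scale) for all genes tested; light blue marks genes with an adjusted p under 0.05, orange and black the receptors with and without it, and 46 genes beyond 4.5 in either direction are not drawn. FZD8, FZD5 and FZD2 lie below the bulk of genes at their level, and FZD3, FZD4 and FZD9 lie at 0.

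To compare the receptors with each other, CPM was divided by the length of the exon sequence of each gene in kilobases. On this scale of CPM per kb, FZD7 led in both media at 59.1 ± 0.254 in E8 control and 45.1 ± 0.547 in PEG and HS (SD, n = 3). In E8 control the mean level then fell in the order FZD5 (14.8 CPM per kb), FZD2 (11.96), FZD8 (8.81), FZD3 (6.45), FZD6 (3.84), FZD4 (2.49), FZD9 (0.830) and FZD1 (0.552), with FZD10 last at 0.0097. No neighbours in this order overlapped between libraries. In PEG and HS the order was FZD7, FZD5 (7.03 CPM per kb), FZD3 (6.56), FZD2 (6.35), FZD8 (3.62), FZD6 (3.11), FZD4 (2.45), FZD9 (0.827), FZD1 (0.366) and FZD10 (0.0066). FZD3 overlapped FZD5 above it, which led in 2 of 3 libraries, and FZD2 below it, which FZD3 exceeded in 1 of 3 libraries. FZD3 moved from the fifth to the third place in mean level, while its own level did not pass the test. These places depend on the annotated exon length, which was longest for FZD3 at 13786 bases. In CPM, FZD3 was at 89.0 in E8 control, below FZD7 and FZD5, and at 90.4 in PEG and HS, below FZD7.

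The summed level of the 10 receptors was 108.8 ± 0.521 CPM per kb in E8 control and 75.4 ± 1.33 CPM per kb in PEG and HS (SD, n = 3), a 1.44-fold lower value. Without FZD7 it was 49.7 and 30.3 CPM per kb, a 1.64-fold difference. The share of FZD7 in the summed level was 54.3% in E8 control and 59.8% in PEG and HS, and that of FZD3 was 5.93% and 8.71%. The shares of FZD5, FZD2 and FZD8 were smaller in PEG and HS, with 9.32% against 13.6% for FZD5, 8.42% against 11.0% for FZD2 and 4.80% against 8.09% for FZD8. By subfamily, FZD5 and FZD8 together were 2.22-fold lower in CPM per kb (10.6 against 23.6) and FZD1, FZD2 and FZD7 together were 1.38-fold lower (51.8 against 71.6). FZD3 and FZD6 together were at 9.67 against 10.3 CPM per kb, and FZD4, FZD9 and FZD10 at 3.28 against 3.33.

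**Figure D4:**
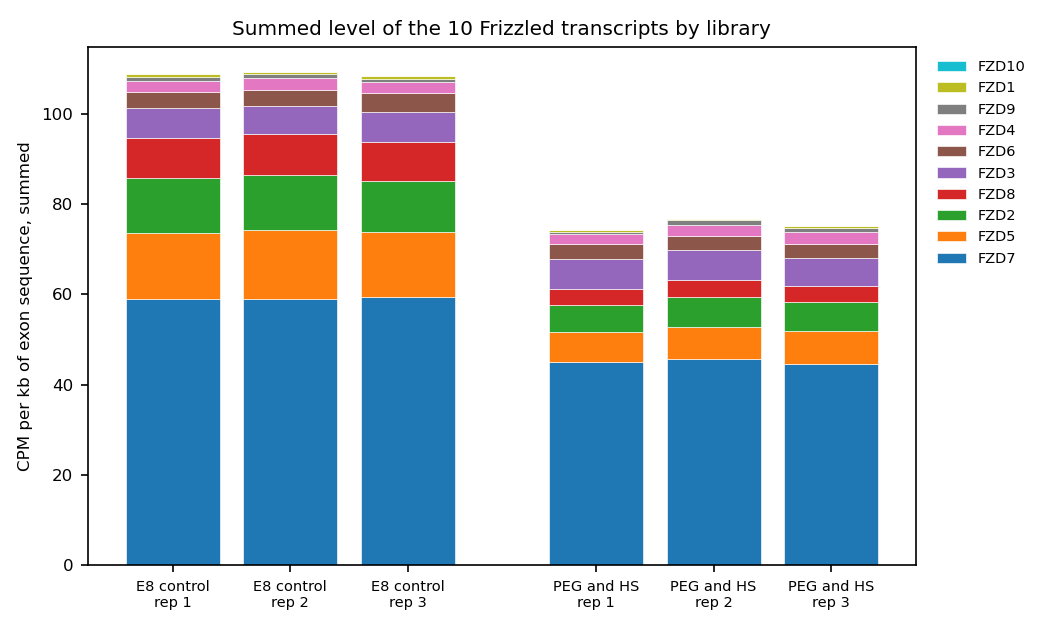
Summed CPM per kb of exon sequence (y axis) of the 10 receptors in each library (x axis), stacked by receptor with FZD7 at the bottom. The 3 E8 control bars average 108.8 and the 3 PEG and HS bars 75.4, and the segments of FZD5, FZD2 and FZD8 are shorter in PEG and HS.

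The genes whose pattern over the 6 libraries was nearest to that of FZD8, the receptor with the largest change, were CITED2, SIX3 and OLFML3 among the 11365 genes with at least 5 CPM as a mean over the 6 libraries. The root mean square difference of centred log2 CPM was 0.033 for CITED2, 0.050 for SIX3 and 0.055 for OLFML3, against 0.100 for FZD5 and 0.179 for FZD2. With only 2 media, this measure mainly picks genes with a similar fold between them. The log2 fold changes were -1.28 for CITED2, -1.35 for SIX3 and -1.30 for OLFML3, beside -1.29 for FZD8 and -1.08 for FZD5. Shared variation beyond the contrast of the media was not tested. CITED2, a transcriptional co-regulator, was at 40.7 ± 1.57 CPM in the PEG and HS libraries and 98.8 ± 0.939 CPM in E8 control (SD, n = 3). SIX3, a homeobox factor of the anterior brain and eye, was at 3.72 ± 0.212 CPM in the PEG and HS libraries and reached the mean of 5 through E8 control, at 9.44 ± 0.329 CPM. OLFML3 is a secreted olfactomedin-domain protein. No receptor was called higher, so no likeness was computed for that direction.

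The list of anterior neural plate markers was mostly lower in PEG and HS. It was written with earlier results of these data known. The paper already reports SOX1, OLIG3, LHX5 and OTX2 of this list as down-regulated ectodermal genes, so its count of calls is not an independent result. Of the 10 genes of this list, 8 were lower and none was higher. Their summed level was 49.7 to 54.7 CPM in the PEG and HS libraries and 170.1 to 177.8 CPM in E8 control. OTX2, a homeobox factor of forebrain and midbrain, was at 18.6 ± 1.31 CPM against 79.4 ± 1.55 CPM (SD, n = 3, log2 fold change -2.10, edgeR adjusted p = 2.08e-13). Pluripotency markers were present in all 6 libraries, with a summed level of 10258 to 10448 CPM in the PEG and HS libraries and 10308 to 10468 CPM in E8 control. Of these 10 genes 3 were lower and 5 higher, so the similar sums held changes in both directions. The log2 fold change was -0.59 for SOX2 and -0.41 for PODXL, and 0.55 for NANOG and 0.23 for POU5F1. Of 6 primitive streak and mesoderm markers 1 was lower (5.47 to 5.63 CPM in sum against 5.97 to 7.34). Of 4 neural crest markers 1 was lower (3.14 to 3.96 CPM against 4.68 to 5.42). Of 6 trophectoderm and amnion markers 1 was lower (2.51 to 3.04 CPM in sum against 2.22 to 2.77). Of 5 endoderm markers none was called (2.19 to 2.64 CPM against 2.85 to 3.54). Beside these counts, 13.1% of all genes tested were called lower and 12.2% higher. Single calls in lists this short were not read as results about a lineage. The trophectoderm and amnion call was HAND1, with 1, 0 and 0 reads in PEG and HS against 6, 7 and 2 in E8 control, which passed the filter only through E8 control and lost its call without PEG and HS replicate 2 or 3 or E8 control replicate 1 (edgeR adjusted p of 0.0748 to 0.0861). GABRP, the most counted gene of that list, was at 2.29 ± 0.0996 CPM in PEG and HS against 1.69 ± 0.214 CPM (SD, n = 3) and was not called (log2 fold change 0.43, edgeR adjusted p = 0.0816). SOX2, PODXL, NANOG, POU5F1, HAND1 and GABRP were named after their values were seen. MSGN1 had no read in any library, and SOX17 and CDX2 had at most 0.04 and 0.07 CPM. The part of these markers in the levels of the receptors was not tested.

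The other genes of the Wnt pathway were read from lists grouped by role. Of 107 genes, 98 were tested, 28 of them (28.6%) were lower in PEG and HS and 9 (9.18%) were higher, with a median log2 fold change of -0.087, beside 13.1% and 12.2% of all genes tested. These shares of all genes also stand beside the counts of each list below. The lower genes include WNT1, WNT8A and WNT10B, which passed the filter only through E8 control. They also include WNT4 and FRZB, which the paper already reports as down-regulated. The lists were written with earlier results of these data known, so the count is not an independent result. SMO, the Hedgehog signal transducer and relative of the Frizzled family, was not called at 100.8 ± 2.57 CPM against 106.2 ± 3.14 CPM (SD, n = 3, log2 fold change -0.07, edgeR adjusted p = 0.120).

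Of 20 ligands, 16 were tested, 5 were lower and 1 was higher, and 13 were under 1 CPM on average in both media. Of the 5 lower ligands, WNT1, WNT8A and WNT10B, named after their values were seen, passed the filter on low counts only through E8 control, where they were high. WNT1 had 0, 1 and 1 reads in PEG and HS against 3, 6 and 7 in E8 control, WNT8A had 1, 1 and 1 reads against 7, 6 and 4, and WNT10B had 3, 2 and 4 reads against 6, 21 and 21. WNT1 lost its call without PEG and HS replicate 1 or 3 or E8 control replicate 2 or 3, with an edgeR adjusted p of 0.0583 to 0.104, and WNT8A without any PEG and HS replicate or E8 control replicate 1 or 2, with an edgeR adjusted p of 0.0666 to 0.105. WNT2B, also named after its values were seen, was at 1.32 ± 0.121 CPM against 2.02 ± 0.167 CPM (log2 fold change -0.61, edgeR adjusted p = 0.0248), and its adjusted p was 0.0665 to 0.0805 without PEG and HS replicate 1 or 3 or E8 control replicate 1 or 2. WNT5A, the ligand with the highest CPM, was at 7.96 ± 0.267 CPM against 8.99 ± 0.406 CPM and was not called (log2 fold change -0.18, edgeR adjusted p = 0.107). WNT4 was lower at 0.307 ± 0.071 CPM against 1.64 ± 0.235 CPM (log2 fold change -2.42, edgeR adjusted p = 1.46e-05). WNT5B, named after its values were seen, was the ligand called higher (log2 fold change 0.59, edgeR adjusted p = 0.0133), and its adjusted p was 0.0736 without PEG and HS replicate 1 and 0.0595 without E8 control replicate 3. WLS, which carries Wnt proteins to the cell surface, was lower (log2 fold change -0.77, edgeR adjusted p = 0.000166), and PORCN, which acylates them, was not called (log2 fold change 0.08, edgeR adjusted p = 0.490).

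Of 9 co-receptors, 1 was lower and 1 higher. PTK7, a co-receptor with the highest CPM of the list, was at 181.7 ± 6.23 CPM against 209.6 ± 3.14 CPM (log2 fold change -0.21, edgeR adjusted p = 0.000112). LRP5 and LRP6, the partners of Frizzled in beta-catenin signalling, were named after their values were seen and were not called. LRP5 had a log2 fold change of 0.05 (edgeR adjusted p = 0.241) and LRP6 of -0.03 (edgeR adjusted p = 0.611). ADGRA2, also named after its values were seen, was higher (log2 fold change 0.34, edgeR adjusted p = 0.0149) and lost the call without PEG and HS replicate 2, PEG and HS replicate 3 or E8 control replicate 2, with an adjusted p of 0.0615 to 0.0672.

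Of 11 genes that act on Frizzled turnover or maturation, 2 were lower, none was higher and 9 were not called. Of all genes tested, 13.1% were called lower. LGR4, an R-spondin receptor that protects Frizzled from removal, was at 87.4 ± 1.93 CPM against 149.7 ± 5.72 CPM (log2 fold change -0.78, edgeR adjusted p = 1.88e-10). SHISA3, of a family that holds Frizzled back in the endoplasmic reticulum, was at 5.94 ± 0.251 CPM against 13.4 ± 0.570 CPM (log2 fold change -1.17, edgeR adjusted p = 1.27e-08). These 2 calls, of a receptor that shields Frizzled proteins and of an inhibitor of their maturation, were not read as a result about the list. SHISA2, of the same family as SHISA3, was not called at 35.1 against 38.0 CPM (log2 fold change -0.11, edgeR adjusted p = 0.100). ZNRF3 (log2 fold change -0.03) and RNF43 (log2 fold change -0.0016) of this list were not called either. These 3 genes were named after their values were seen.

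Of 18 antagonists, 16 were tested, 5 were lower and 1 was higher. FRZB, a secreted protein with a Frizzled-type cysteine-rich domain, was at 2.19 ± 0.213 CPM against 11.6 ± 0.924 CPM (log2 fold change -2.41, edgeR adjusted p = 1.65e-10). SFRP1, of the same family, was at 644.8 ± 19.0 CPM against 997.3 ± 16.8 CPM (log2 fold change -0.63, edgeR adjusted p = 1.63e-10). SFRP2, the antagonist called higher and named after its values were seen, was at 675.1 ± 11.6 CPM against 485.7 ± 16.3 CPM (log2 fold change 0.48, edgeR adjusted p = 6.62e-09). Secreted proteins that share the ligand-binding domain of the receptors thus moved in both directions.

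Of 13 genes of Dishevelled and the destruction complex, 5 were lower and 2 higher. APC2 was lower (log2 fold change -1.03, edgeR adjusted p = 0.000138), and CTNNB1, the gene of beta-catenin, was not called at 510.8 ± 7.70 CPM against 531.5 ± 9.02 CPM (log2 fold change -0.06, edgeR adjusted p = 0.115). Of 8 nuclear partners of beta-catenin, 4 were lower and none was higher, and TCF7L1 was not called (log2 fold change -0.02, edgeR adjusted p = 0.742). Of 18 target and feedback genes, 15 were tested, 3 were lower and 3 were higher. CCND1, the target with the highest CPM, was not called (log2 fold change 0.07, edgeR adjusted p = 0.108), but was called higher without E8 control replicate 3 (edgeR adjusted p = 0.0244) and with the replicate number as a block (edgeR adjusted p = 0.0337). Among feedback genes named after their values were seen, AXIN2 was lower (log2 fold change -0.27, edgeR adjusted p = 5.59e-05) and NKD1 was higher (log2 fold change 0.30, edgeR adjusted p = 0.00252).

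Of 16 genes of planar cell polarity, 5 were lower and 1 was higher. VANGL2, the core component with the highest CPM of the list, was at 163.9 ± 3.35 CPM against 174.6 ± 3.97 CPM (log2 fold change -0.09, edgeR adjusted p = 0.0335). Its adjusted p was 0.0505 with library size alone as normalization, 0.142 without PEG and HS replicate 1 and 0.122 without E8 control replicate 1. PRICKLE1 and CELSR2, core components named after their values were seen, were lower. PRICKLE1 had a log2 fold change of -0.93 (edgeR adjusted p = 7.02e-11) and CELSR2 of -0.62 (edgeR adjusted p = 5.61e-09).

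**Figure D5:**
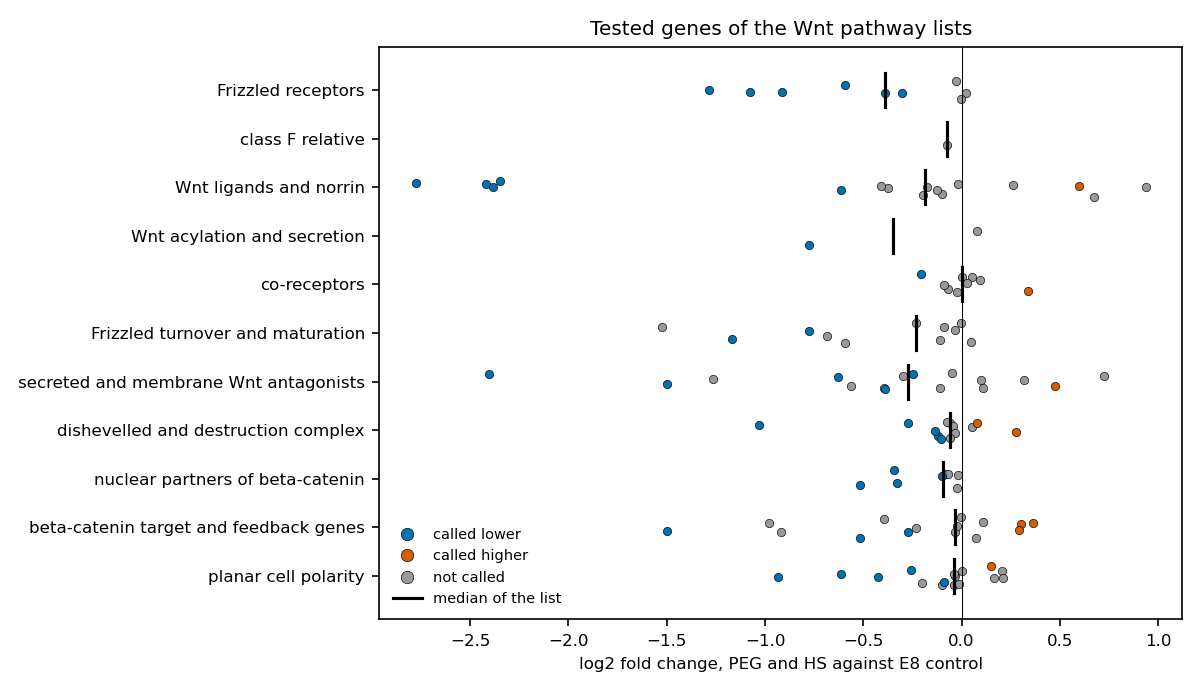
Log2 fold change of PEG and HS against E8 control (x axis) of each tested gene, by list (y axis); blue marks genes called lower, orange genes called higher, grey the others, and the black bar is the median of the list. The median of the Frizzled receptors is -0.39, that of the ligands -0.19 and that of the co-receptors 0.0040.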

How the data were processed

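Polyadenylated RNA of 6 libraries was sequenced from stranded preparations. The authors trimmed reads with Trim Galore 0.6.7 and mapped them to GRCh38 with STAR 2.6.1 (versions from the submitters' processing notes), and deposited raw counts per gene, 26991279 to 36185138 per library. The counting tool and annotation release are not given in the sources used here. Of 19977 identifiers, 19916 matched GENCODE 44, and 1799 genes had no count.

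Testing covered genes with a sum of 10 or more counts, in edgeR 4.0.16 (R 4.3.3; glmQLFTest after TMM, without covariates). P-values were adjusted by Benjamini-Hochberg over all genes, and genes under 0.05 were called. The common biological coefficient of variation was 3.12%. Alternatives used DESeq2 1.42.0, limma 3.58.1 (voom), other normalizations and filters, a 1.5-fold null, a replicate block and left-out libraries. Scripts were tested on simulated data. The dispersions of the simulation and the limit on false calls were set after a first version gave more false calls. Passing that test is therefore not an independent check.

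The receptors and lists were chosen with earlier results of these data known. Named were all receptors, every gene of lists of up to 3 genes, of longer lists the genes called with an absolute log2 fold change over 1 and at least 1 CPM, the most counted gene of each list, and the 3 genes nearest to FZD8. Other genes were named after their values were seen. Intervals of the folds are 95% intervals of the fit.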

Additional observations from a re-analysis of the deposited data

How the results depend on the processing

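Of the alternatives, the 1.5-fold null moved the counts of calls, to 264 for all genes, 234 for genes lower in PEG and HS, 3 for the receptors and 5 for the other Wnt genes. The count of 6 receptors was given by the other 15 alternatives. All genes called numbered 3398 with DESeq2 and 3114 to 3674 with 1 library left out, against 4173, and the other Wnt genes 31 and 25 to 33, against 37. The summed level per length was 108.6 to 109.1 CPM per kb in E8 control and 74.7 to 76.0 in PEG and HS with 1 library left out.

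Changes of sign occurred in receptors and genes that were not called. FZD9 was at 0.0032 (log2 fold change) with library size alone. With 1 library left out, FZD3 ranged from -0.0065 to 0.051, FZD4 from -0.091 to 0.043, FZD9 from -0.12 to 0.20 and TCF7L1 from -0.036 to 6.1e-05. Over 50 of the named genes, 722 of 787 values kept direction and call, 54 lost the call, 2 (both of CCND1) gained it and 9 changed sign.

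With the replicate number as a block, 4444 genes, 6 receptors and 38 other Wnt genes were called. Libraries of the same number correlated at 0.0229 to 0.0459 in their deviations from the mean of the medium. Libraries of different numbers correlated at -0.0883 to 0.0457. These ranges overlap and all correlations were small, so little was shared between libraries of equal number. With 3 libraries per medium, the values cannot decide whether equal numbers are pairs. The main test did not take the labels' numbers as pairs. The counts of FZD9 and FZD10 limit what can be read from them.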

Other observations

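Some genes beside the receptors in the pathway were singled out after their values were seen. Of the 8 nuclear partners of beta-catenin, of which 4 were not called, examples of those lower in PEG and HS had log2 fold changes of -0.35 for TCF7L2 (edgeR adjusted p = 5.94e-07) and -0.33 for BCL9L (edgeR adjusted p = 1.89e-06). LEF1 was lower by a log2 fold change of -0.52 (edgeR adjusted p = 0.0187), with an adjusted p of 0.0728 without PEG and HS replicate 2 and 0.0977 without E8 control replicate 2. APC, a scaffold of the complex that degrades beta-catenin, was higher at 63.9 against 52.8 CPM (log2 fold change 0.28, edgeR adjusted p = 8.80e-05). The feedback inhibitor NKD2 (log2 fold change 0.36, edgeR adjusted p = 0.00534) and BAMBI, a pseudoreceptor (log2 fold change 0.29, edgeR adjusted p = 0.00226), were also higher.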
